A study of Mus musculus with 4 samples.

Results

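The genes described here were taken by name as a group linked to the primary granule of neutrophils. They are Mpo, Elane, Prtn3, Ctsg, Prss57 and Ms4a3, 6 of the 18695 genes in the deposited matrix. Their RNA was counted cell by cell in mouse bone marrow, in 4 libraries, 1 for each of 2 genotypes and 2 sorts. The control mouse was a Cre-negative Tet2 fl/fl littermate and the Tet2 KO mouse carried Mx1-Cre with Tet2 fl/fl, and both had received 4 doses of pI:pC at 12.5 µg/g and were 8 to 12 weeks old. pI:pC imitates viral RNA and switches on the interferon-inducible Mx1 promoter, which is active in many tissues besides blood, and both genotypes had been exposed to it. The first sort held granulocyte-monocyte progenitors (GMPs: Lin- cKit+ Sca1- CD34+ CD16/32+), and the other held Lin- progenitors together with CD11b+ myeloid cells (the Lin-/CD11b+ sort). The cell table names 1 mouse per genotype, which gave both sorts, so genotype, mouse and preparation cannot be told apart and no test between genotypes was made. Counts of 3′ ends do not check whether the floxed part of Tet2 was removed.

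Primary, or azurophil, granules are made at the promyelocyte stage of neutrophil development, before the secondary granules that hold lactoferrin and cathelicidin. Their serine proteases are made as inactive precursors and trimmed by the protease cathepsin C, and the contents are stored on the proteoglycan serglycin and released into phagosomes or onto extracellular DNA traps. The genes are silenced again as the cell matures, so that a mature neutrophil carries the proteins but little of their RNA, and monocyte progenitors also make some of them.

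Mpo encodes myeloperoxidase, the haem enzyme that makes hypochlorous acid. Elane, Prtn3 and Ctsg encode the serine proteases neutrophil elastase, proteinase 3 and cathepsin G, and Prss57 encodes a further serine protease of the same granule. Ms4a3 is the exception in the group: it encodes not a granule enzyme but a membrane protein with several membrane-spanning segments. Its locus is used to mark the progeny of GMPs. In the RefSeq annotation of GRCm38.p6, the build that the submitters' notes call mm10, Prss57 lay at chr10:79781474-79794684, Prtn3 at chr10:79879667-79883174 and Elane at chr10:79886312-79888216. Mpo lay at chr11:87793784-87804412, Ctsg at chr14:56099885-56102574 and Ms4a3 at chr19:11629499-11640851. Prtn3 and Elane were direct neighbours, with 3137 bases between them and no other protein-coding gene, while 4 protein-coding genes separated Prss57 from Prtn3.

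The promoters of the neighbours Prtn3 and Elane, and of Ms4a3, which differed most between genotypes among GMP-sorted Ly86+ cells, are printed below as the 150 bases before the RefSeq start, 5′ to 3′ on the strand of the gene. Capitals mark 3 kinds of motif, which were chosen with the sequences in view. The ETS-type letters, of the kind that PU.1 and related factors bind, are GGAAGT. The letters searched for a MYB-type motif, named after the factor of progenitor cells, are CAACGG. The letters of the TATA-type motif, which helps to place the start of transcription, are TATAAG.
Prtn3 (chr10:79879517-79879666, plus strand): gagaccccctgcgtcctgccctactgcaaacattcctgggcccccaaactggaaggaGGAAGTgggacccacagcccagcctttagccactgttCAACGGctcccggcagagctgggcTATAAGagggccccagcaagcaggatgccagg
Elane (chr10:79886162-79886311, plus strand): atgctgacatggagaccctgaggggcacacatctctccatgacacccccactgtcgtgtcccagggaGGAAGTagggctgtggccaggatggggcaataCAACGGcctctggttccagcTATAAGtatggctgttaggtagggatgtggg
Ms4a3 (chr19:11640852-11641001, minus strand): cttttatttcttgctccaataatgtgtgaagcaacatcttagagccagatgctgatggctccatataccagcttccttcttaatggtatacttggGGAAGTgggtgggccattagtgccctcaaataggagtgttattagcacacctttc
In Prtn3 and Elane the 3 motifs stood in the same order, with the ETS-type letters starting 93 and 83 bases, the MYB-type letters 56 and 51 bases and the TATA-type letters 32 and 31 bases before the start. Searched on both strands over 250 bases, the ETS-type letters were in the windows of all 5 members that have an entry, against 19.7% of all 32851 promoters, and they began 222 bases before the start of Mpo and 205 before that of Ctsg. The MYB-type letters were in Prtn3 and Elane, against 4.05% of promoters, and the TATA-type letters in the same pair, against 6.65%. A RUNX-type motif, searched as TGTGGT and present in 14% of promoters, was in Ctsg. A C/EBP-type motif, present in 9.56% of promoters and searched on both strands with the letters TTGCNNAA, was in none of the 5 windows. No other letters for C/EBP were searched, so the absence covers this pattern only. No overlap between motifs occurred in the printed bases. The marked letters were chosen with these sequences in view, so setting them beside the shares of all promoters is no test. These matches describe letters in a window and no binding was measured here. Prss57 is named only, without a promoter.

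Cells were gated on marker UMIs, none of them a member; a UMI (unique molecular identifier) stands for 1 captured RNA molecule, and 3′ counting gives 1 count per molecule whatever the length of the RNA. Cells with UMIs of lymphoid, plasmacytoid dendritic, basophil or erythroid genes, or high MHC class II, were set aside first. The gates were then S100a8-high (at least 2% of UMIs from S100a8), Fn1 (at least 5 UMIs of Fn1 and at most 1 of Cebpe), Hlf/Procr (a UMI of Hlf or Procr, none of Ly86 or Cebpe, at most 1 of Fn1), Cebpe (at least 2 UMIs of Cebpe, none of Ly86) and Ly86 (at least 2 UMIs of Ly86, none of Cebpe, under 5 of Fn1). They took between 46.0% and 54.6% of the cells of a library. Cells that were neither gated nor set aside made up 28.4% of the control and 42.6% of the Tet2 KO cells in the GMP sort. In the Lin-/CD11b+ sort they made up 23.1% of the control and 28.6% of the Tet2 KO cells. The values by gate do not cover these cells. Cells in the Cebpe gate numbered 289 and 569 in the control and Tet2 KO GMP libraries and 126 and 115 in the Lin-/CD11b+ libraries. Ly86 cells numbered 365, 657, 647 and 779 in the same order. The Hlf/Procr gate had 69 and 168 cells, the S100a8-high gate 148 and 218 and the Fn1 gate 60 and 170 in the Lin-/CD11b+ sort, while the GMP sort gave under 20 cells in each of these.

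The marker lists fitted some gates better than others in the control Lin-/CD11b+ library. Stem and early progenitor markers summed to 701 CPM (UMIs of a gene per 1000000 UMIs of the same cells) in Hlf/Procr cells and to between 26.4 and 152 CPM in the other gates. Monocytic progenitor markers summed to 4242 CPM in Ly86 cells and 1252 CPM in Cebpe cells, but were higher still, at 6075 CPM, in Fn1 cells. Granulocytic progenitor markers were not highest in Cebpe cells: they summed to 1458 CPM there, 2655 CPM in S100a8-high cells and 1282 CPM in Fn1 cells. The gates are therefore called by their gating genes. Neutrophil markers reached 134080 CPM in S100a8-high cells and stayed at or under 161 CPM elsewhere, and monocyte markers reached 9927 CPM in Fn1 cells. Nkg7, listed as a T and NK marker, stood at 1618 CPM in Cebpe cells with Cd3e at 0.

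The libraries held 22681380 to 42561110 UMIs in 1258 to 3068 cells, with medians of 18713 and 15488 UMIs per cell in the GMP sort and 11092 and 10417 in the Lin-/CD11b+ sort (control before Tet2 KO here and wherever a pair of values is given without naming its order). The 6 members took 2.28% and 2.41% of all UMIs in the GMP sort and 0.954% and 0.786% in the other. All intervals below are 95% intervals, exact Poisson for levels, exact binomial for shares and exact conditional binomial for ratios, and they cover counting error only. The deposited cell table and the stated cell numbers of the Tet2 KO GMP and the control Lin-/CD11b+ libraries are exchanged relative to each other; the table was followed, and cells with at least 10 UMIs of Cd79a or Cd3 genes were 97 and 109 in the libraries it assigns to the Lin-/CD11b+ sort and 0 of 1258 and 0 of 2719 in those of the GMP sort, with upper limits of 0.293% and 0.136%. Of all barcodes, 37 occurred in 2 libraries, in 16 to 21 cells of each.

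Across the gates with at least 20 cells, the 6 genes were highest in Cebpe cells in every library. Elane led with 11209 and 11692 CPM in the GMP sort and 12131 and 9754 CPM in the Lin-/CD11b+ sort. Mpo stood at 6794 and 6727 CPM in the GMP sort and 6097 and 5799 CPM in the other. Prtn3 followed with 6757, 6424, 6634 and 5622 CPM and Ctsg with 6309, 5999, 6368 and 4932 CPM in the same order of libraries. Mpo and Prtn3 were thus close in each library, and which of them stood above the other changed between libraries. Ms4a3 stood at 2156, 2208, 2272 and 1847 CPM, and Prss57 was by far the lowest, at 383, 319, 396 and 261 CPM. Together the 6 genes gave 33607 and 33367 CPM in the GMP sort, so that more than 3% of all RNA molecules counted in these cells came from them. In the 2 sorts the Cebpe cells were alike for the members: 0 of 6 differed by 1.5-fold or more between the GMP and the Lin-/CD11b+ sort in either genotype, where 2.44% of genes in control and 3.66% in Tet2 KO were higher in the GMP sort and 0.754% and 2.39% were lower.

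**Figure D1:**
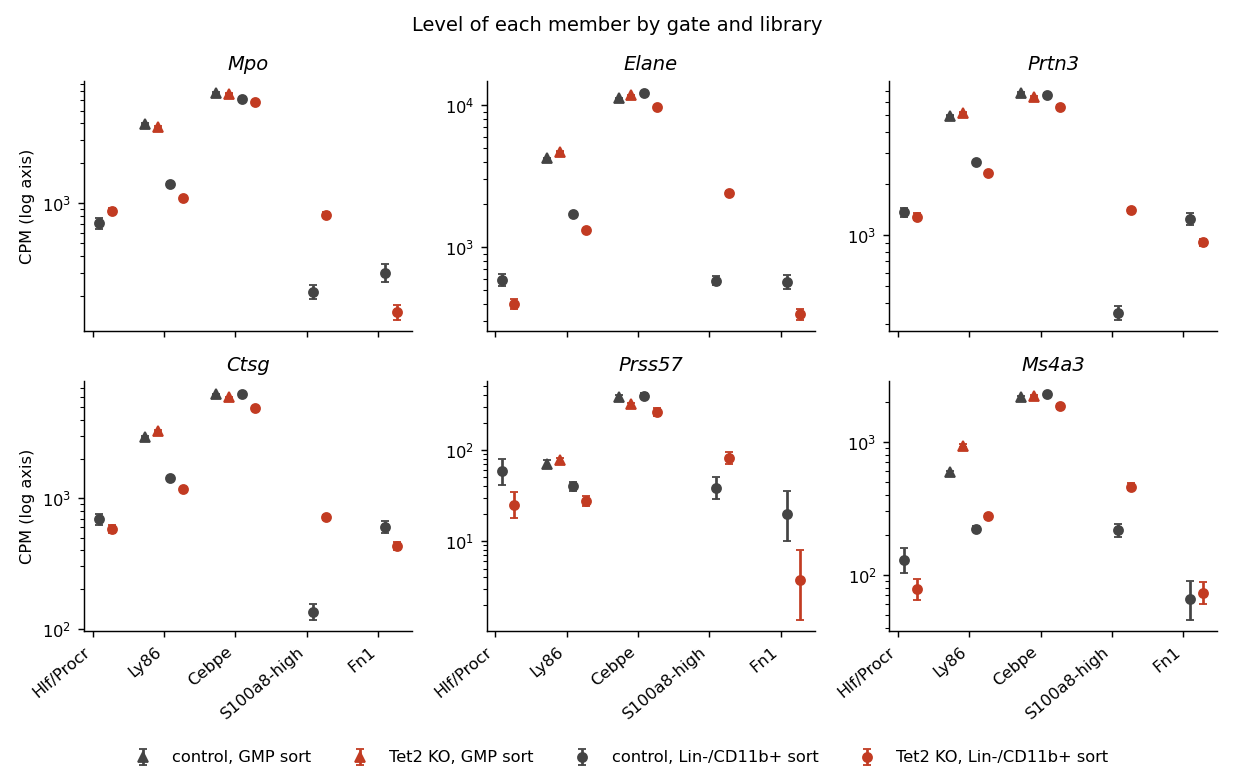
Each panel plots 1 member in CPM on a log axis for the gates with at least 20 cells, with triangles for the GMP sort and circles for the Lin-/CD11b+ sort, dark for control and red for Tet2 KO, and bars for exact Poisson 95% intervals. All 6 genes peak in Cebpe cells, with Elane at 9754 to 12131 CPM, and the S100a8-high gate is where the 2 genotypes lie furthest apart for Mpo, Elane, Prtn3 and Ctsg.

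Ly86 cells also carried the genes, but at levels that depended on the sort. In the control GMP sort Prtn3 led with 4998 CPM, followed by Elane at 4218, Mpo at 3958 and Ctsg at 2953 CPM. Ms4a3 stood at 589 CPM and Prss57 at 70.4 CPM. In the control Lin-/CD11b+ sort the same gate gave 2665 CPM of Prtn3, 1701 of Elane, 1429 of Ctsg, 1409 of Mpo, 223 of Ms4a3 and 40.2 of Prss57. All 6 members were thus 1.5-fold or more higher in GMP-sorted than in Lin-/CD11b+-sorted Ly86 cells, in control (2.55% of all genes with at least 100 UMIs in 1 library were) and also in Tet2 KO (3.85% of genes). The GMP sort gates on cKit and CD34 and the other sort does not. In control Ly86 cells of the GMP and the Lin-/CD11b+ sort, monocytic progenitor markers summed to 4171 and 4242 CPM. Stem and early progenitor markers summed to 139.8 and 145 CPM there and dendritic cell markers to 1.60 and 65.9 CPM. Csf1r, the receptor of the monocyte growth factor, was at 51.0 and 62.6 CPM. The part of the gating or of these genes in the difference between sorts was not tested.

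Cebpe over Ly86 cells, 5 of 6 members were 1.5-fold or more higher in the control GMP sort, where 7.08% of genes were, and 6 of 6 in the control Lin-/CD11b+ sort, where 8.11% were. In Tet2 KO the counts were also 5 and 6, where 6.21% and 6.28% of genes were. The member under the limit in the GMP sort was Prtn3, with 6757 against 4998 CPM. The median log2 ratio of the 6 was 1.25 in the GMP sort, against -0.02 over all genes tested, and 2.49 in the Lin-/CD11b+ sort, against -0.14. In the GMP sort Prss57 had the widest spacing, 383 against 70.4 CPM. Over Hlf/Procr cells, Cebpe cells were 1.5-fold or more higher for 6 of 6 members in control, where 19.6% of genes were, and for 6 of 6 in Tet2 KO, where 13.3% were.

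In Hlf/Procr cells, the gate with the stem and early progenitor markers, the members were detected in differing shares of cells, and Prtn3 in nearly all. With every cell thinned to 5000 UMIs, Prtn3 had a UMI in 97.1% of control cells (interval 89.9 to 99.6%) and in 95.8% of Tet2 KO cells (91.6 to 98.3%). Mpo had a UMI in 52.2% and 66.7% of cells and Ctsg in 44.9% and 39.9%. Elane, which led in Cebpe cells, had a UMI in only 15.9% and 24.4% of cells, and Ms4a3 in 15.9% and 14.3%. Without thinning the shares were 100% and 98.8% for Prtn3, 59.4% and 73.2% for Mpo and 30.4% and 38.1% for Elane.

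Lymphoid cells served as the background for these shares, since they should lack the genes. Among the 97 control lymphoid cells, thinned in the same way, 15.5% had a UMI of Prtn3, 11.3% of Elane, 9.3% of Mpo, 8.2% of Ctsg, 4.1% of Ms4a3 and 1.0% of Prss57. Among the 109 Tet2 KO lymphoid cells the shares were 28.4%, 14.7%, 24.8%, 11.01%, 6.4% and 2.8%. The share of Elane in control Hlf/Procr cells, with an interval of 8.24 to 26.7%, overlapped that background (5.80 to 19.4%), as did that in Tet2 KO (18.1 to 31.6% against 8.63 to 22.7%), and no expression is read from it. The intervals of Ms4a3 in both genotypes and of Prss57 in Tet2 KO overlapped those of lymphoid cells too, and the same holds for them. The median depth before thinning was 8759 UMIs in control Hlf/Procr cells and 15328 in control lymphoid cells, and 8075 and 13356 in Tet2 KO.

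The level of Elane in Hlf/Procr cells, 586 CPM in control and 397 CPM in Tet2 KO, rested on few cells: 3 cells held 94.7% of the control UMIs and 64.5% of those in Tet2 KO, and the median cell had none in either library. For Prtn3, at 1356 and 1281 CPM, 3 cells held 23.8% and 16.2%, and the median cells stood at 857 and 870 CPM. In the GMP sort the Hlf/Procr gate held only 16 and 17 cells, whose median summed level was 5938 and 20031 CPM, and no ratio was taken.

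**Figure D2:**
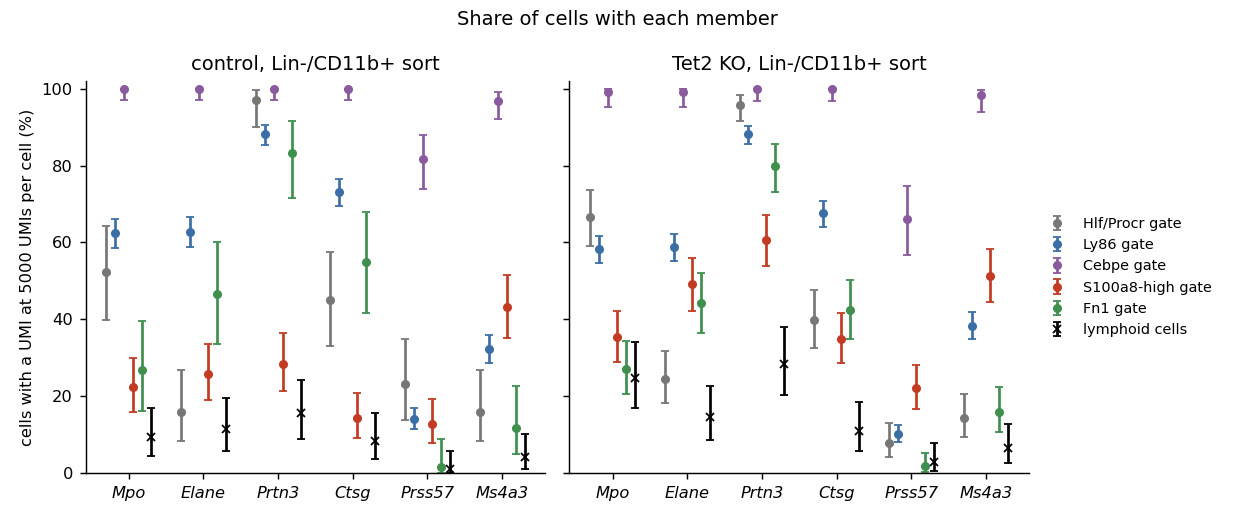
The share of cells with a UMI of each member, after thinning to 5000 UMIs per cell, is plotted for the 5 gates and for lymphoid cells of the Lin-/CD11b+ sort (crosses), control on the left and Tet2 KO on the right, with exact binomial 95% intervals. Prtn3 lies at 97.1% and 95.8% in Hlf/Procr cells while Elane lies at 15.9% and 24.4%, near the lymphoid cells, and in Cebpe cells all members but Prss57 lie above 96%.

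In Fn1 cells, the monocytes by their markers, Prtn3 was the highest member. In control it stood at 1241 CPM and in Tet2 KO at 905 CPM, and after thinning it had a UMI in 83.3% and 80.0% of cells. Ctsg stood at 602 and 431 CPM, Elane at 571 and 336, Mpo at 297 and 151, Ms4a3 at 65.3 and 73.4 and Prss57 at 19.95 and 3.70 CPM. Relative to Ly86 cells of the same library, 6 of 6 members were 1.5-fold or more lower in control, where 18.3% of genes were, and 6 of 6 in Tet2 KO, where 15.1% were. Mpo in Fn1 cells had a UMI in 26.7% and 27.1% of thinned cells, against 9.3% and 24.8% in lymphoid cells, with overlapping intervals in control and in Tet2 KO (20.5 to 34.4% against 17.0 to 34.0% in the latter). Prss57 and Ms4a3 overlapped the lymphoid shares in both genotypes as well, and no expression is read from the shares of these 3 genes.

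When Ly86 and Fn1 cells of the Lin-/CD11b+ sort were pooled and binned by their Fn1 UMIs, the summed members went from 8095 CPM in 496 control cells without Fn1 to 5041 CPM in 151 cells with 1 to 4 UMIs and 2832 CPM in 59 cells with 5 to 19. In Tet2 KO the same bins gave 6902, 4013 and 1950 CPM in 562, 217 and 165 cells. Prtn3 went from 2791 to 2178 and 1253 CPM in control, and Mpo from 1611 to 630 and 300.4 CPM, so the genes did not decline by the same factor. Bins at 20 or more Fn1 UMIs held 1 and 5 cells and are not read. Because the gates themselves divide at 5 Fn1 UMIs, the bins below that hold the Ly86 cells and the bins above it the Fn1 cells. The step to the bin of 5 to 19 therefore repeats the comparison of Fn1 with Ly86 cells given above.

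In S100a8-high cells, the gate with the neutrophil markers, the members were far below Cebpe cells. Each was at least 1.5-fold lower in both genotypes, where 67.8% of all genes were lower in control and 41.0% in Tet2 KO. The cells of this gate were not alike in the 2 genotypes, as given below. The control cells had 581 CPM of Elane, 349.5 of Prtn3, 217 of Ms4a3, 214 of Mpo, 135 of Ctsg and 38.5 of Prss57. The control ratio was smallest in size for Prss57 and Ms4a3 and largest for Ctsg, which was at 6368 CPM in Cebpe cells. After thinning Ms4a3 was the member most often detected in control S100a8-high cells, in 43.2% of them (interval 35.1 to 51.6%), against 4.1% of lymphoid cells. Prtn3 had a UMI in 28.4% of these S100a8-high cells, Elane in 25.7%, Mpo in 22.3%, Ctsg in 14.2% and Prss57 in 12.8%. The intervals of Mpo, Elane, Prtn3 and Ctsg overlapped those of the lymphoid shares, and no expression of these 4 genes is read from the shares in control cells. Those of Ms4a3 and Prss57 lay above the lymphoid intervals. In Tet2 KO the interval of Mpo overlapped and those of Elane, Prtn3, Ctsg, Prss57 and Ms4a3 lay above. The share of all genes that lie above the lymphoid cells in this way was not computed. These overlaps are therefore read gene by gene and not as a result about the group.

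Cebpe and S100a8-high cells of the control Lin-/CD11b+ library were also ordered by the share of their UMIs from 5 secondary granule genes, Ltf, Camp, Ngp, Lcn2 and Mmp8. The summed members stood at 33191 CPM in 74 cells with up to 0.01% and at 34465 CPM in 54 cells with 0.01 to 0.1%. Over 5%, in 136 cells, they stood at 888 CPM. The bins between held 7 and 3 control cells and are not read. In Tet2 KO the sums were 29437 CPM in 82 cells up to 0.01%, 22450 in 67 cells from 0.01 to 0.1%, 5949 in 32 cells from 0.1 to 1%, 10270 in 25 cells from 1 to 5% and 1525 CPM in 127 cells over 5%. The sums from 0.1 to 1% and from 1 to 5% rested on few cells, as 3 cells held 63.2% and 54.2% of the member UMIs, and the median cells had 1169 and 812 CPM.

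The make-up of the member UMIs differed from gate to gate. In the control libraries Prtn3 gave 38.5% of them in Hlf/Procr cells, 35.7% in Ly86 cells of the Lin-/CD11b+ sort, 29.8% in Ly86 cells of the GMP sort, 20.1% and 19.6% in Cebpe cells, 22.8% in S100a8-high cells and 44.4% in Fn1 cells. Elane gave 16.6%, 22.8%, 25.1%, 33.4% and 35.8%, 37.8% and 20.4% in the same order of gates, the first of these values resting on the 3 cells that held 94.7% of the Elane UMIs in Hlf/Procr cells. Mpo lay between 17.99% and 23.6% in the progenitor gates and at 13.9% and 10.6% in S100a8-high and Fn1 cells. Ms4a3 lay between 2.98% and 6.70% in progenitor gates and reached 14.1% in control S100a8-high cells.

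**Figure D3:**
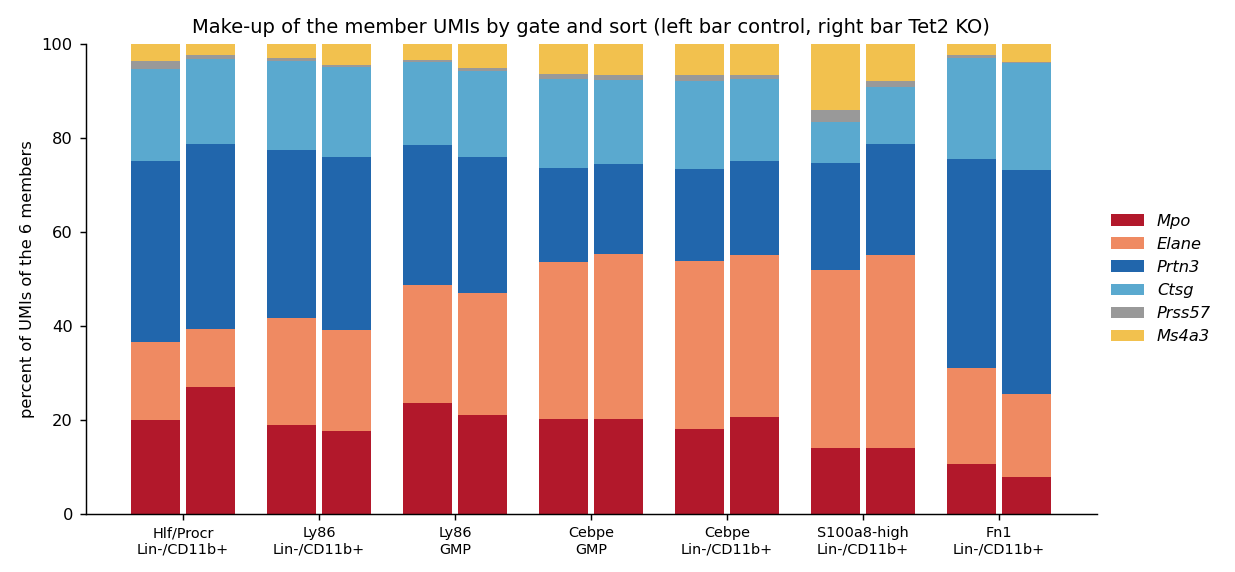
Each bar shows how the UMIs of the 6 members divide among them, in percent, for a gate and sort, with control on the left and Tet2 KO on the right of each pair. Prtn3 gives the largest share in Hlf/Procr, Ly86 and Fn1 cells (28.9 to 47.6%) and Elane in Cebpe and S100a8-high cells (33.4 to 41.1%).

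The number of members found in a single cell was counted after thinning. All 6 were present in 78.5% and 72.2% of GMP-sorted Cebpe cells and in 81.0% and 66.1% of those in the other sort. In GMP-sorted Ly86 cells, 5 members were present in 63.8% and 66.8% of cells and all 6 in 24.7% and 26.8%. In control S100a8-high cells 32.4% had none of the 6, against 9.2% in Tet2 KO, and 57.7% and 41.3% of lymphoid cells had none. Over the 15 pairs of members, Pearson's r of log-scaled counts across the cells of a gate had a median of 0.66 and 0.60 in GMP-sorted Cebpe cells and 0.49 and 0.60 in GMP-sorted Ly86 cells. In the Lin-/CD11b+ sort the medians were 0.69 and 0.68 in Cebpe cells, 0.73 and 0.75 in Ly86 cells, 0.49 and 0.47 in Hlf/Procr cells, 0.45 and 0.51 in Fn1 cells and 0.58 and 0.76 in S100a8-high cells. Lymphoid cells had medians of 0.02 in control and 0.58 in Tet2 KO, so that a high median was also found in cells that should lack the genes. In Tet2 KO a few lymphoid cells held most of the member UMIs, as given below, and their part in this median was not tested. Cells of a gate share their library and differ in depth, and these values are descriptions over the 60 to 779 cells of each gate and the lymphoid cells.

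The comparison of genotypes asks whether losing Tet2, an enzyme that oxidises 5-methylcytosine, goes with other levels of these genes at a given stage. In GMP-sorted Cebpe cells 0 of 6 members differed by 1.5-fold or more, where 1.35% of genes were higher and 1.18% lower by that much. The widest log2 ratio was that of Prss57, -0.26 (-0.35 to -0.18), and the sum of the 6 had -0.01 (-0.02 to 0.00). Monocytic progenitor markers summed to 1908 CPM in Tet2 KO and 1061.5 CPM in control among these Cebpe cells. Granulocytic progenitor markers summed to 1293.5 CPM in Tet2 KO and 1386.5 CPM in control there, and the part of these markers was not tested. In GMP-sorted Ly86 cells 1 of 6 members was 1.5-fold or more higher in Tet2 KO, against 1.40% of genes. It was Ms4a3, at 938 CPM in Tet2 KO and 589 CPM in control, a log2 ratio of 0.67 (0.62 to 0.72), and 0 of 6 were lower, against 1.35% of genes. The other 5 had log2 ratios of -0.07 to 0.16. After thinning Ms4a3 had a UMI in 93.5% and 87.1% of Tet2 KO and control cells. S100a8 stood at 156 CPM in Tet2 KO and 13.1 CPM in control, neutrophil markers summed to 49.2 CPM in Tet2 KO and 19.97 CPM in control, and granulocytic progenitor markers to 936 CPM in Tet2 KO and 898 CPM in control; their part in the difference was not tested.

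In the Lin-/CD11b+ sort, 0 of 6 members differed by 1.5-fold in Ly86 cells, where 2.75% of genes were higher and 1.05% lower. Log2 ratios there were -0.36 for Mpo and Elane, -0.22 for Prtn3, -0.28 for Ctsg and -0.54 for Prss57, and 0.31 for Ms4a3, which alone among the 6 was again higher in Tet2 KO. In Cebpe cells 1 of 6 was 1.5-fold or more lower in Tet2 KO, against 1.91% of genes, and 0 were higher, against 1.16%. This was Prss57, at 261 and 396 CPM in Tet2 KO and control, a log2 ratio of -0.61 (-0.79 to -0.43), and it lay close to the limit of 1.5-fold. The remaining 5 had log2 ratios of -0.37 to -0.07. Monocytic progenitor markers summed to 1668 CPM in Tet2 KO and 1252 CPM in control among these Cebpe cells. Granulocytic progenitor markers summed to 1159.6 CPM in Tet2 KO and 1458 CPM in control there, and the part of these markers was not tested. In Hlf/Procr cells 5 of 6 members had at least 100 UMIs in a library, and 1 of these, Ms4a3, was lower in Tet2 KO, against 1.56% of genes, at 78.3 CPM in Tet2 KO and 129.7 CPM in control, and 0 were higher, against 2.42%. 3 cells held 70.1% of its control UMIs. Prss57, with 39 UMIs in each library, stood at 25.2 CPM in Tet2 KO and 58.2 CPM in control, a log2 ratio of -1.21 (-1.88 to -0.53), and had a UMI in 7.7% of thinned Tet2 KO and 23.2% of thinned control cells. Dendritic cell markers summed to 318 CPM in Tet2 KO and 70.1 CPM in control Hlf/Procr cells, and their part was not tested.

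In Fn1 cells 2 of the 5 members with enough UMIs were 1.5-fold or more lower in Tet2 KO, against 2.37% of genes, and 0 were higher, against 5.90%. Mpo had a log2 ratio of -0.98 (-1.27 to -0.69) and Elane -0.77 (-0.97 to -0.56). In control, 3 of 60 cells held 81.1% of the Mpo UMIs and 64.4% of those of Elane. With the 5% of cells with most UMIs of each library left out, the log2 ratios were 0.63 and 0.13, so the direction depended on which cells were kept. Whether the cells holding most of the Mpo and Elane UMIs were among those left out was not checked. S100a8 stood at 2172 CPM in Tet2 KO and 170.5 CPM in control Fn1 cells, and its part was not tested. Prss57 had 6 UMIs in Tet2 KO and 11 in control, a log2 ratio of -2.43 (-4.15 to -0.87).

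**Figure D4:**
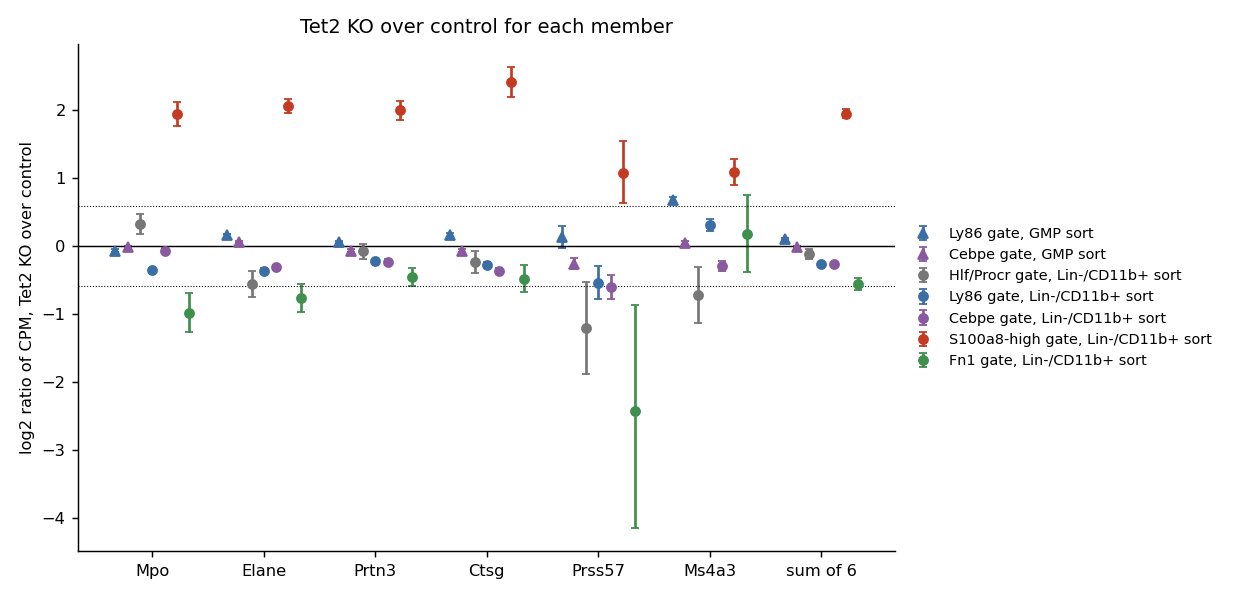
Points give log2 of the Tet2 KO level divided by the control level for each member and their sum, with a symbol for each gate and sort (triangles for the GMP sort, circles for the Lin-/CD11b+ sort), exact conditional binomial 95% intervals, and dotted lines at 1.5-fold. S100a8-high cells lie above the upper line for all 6 genes, Ms4a3 in GMP-sorted Ly86 cells lies at 0.67, and the values of Cebpe cells in the GMP sort lie between -0.26 and 0.06.

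Among the 7 gate and sort comparisons, S100a8-high cells had the widest difference between genotypes for the sum of the members. All 6 members were 1.5-fold or more higher in Tet2 KO, where 33.7% of genes were higher and 2.77% lower, with a median log2 ratio of 1.96 for the members and 0.41 over the genes tested. Elane stood at 2420 CPM in Tet2 KO and 581 CPM in control, and in the same order Prtn3 at 1391 and 349.5, Mpo at 819 and 214, Ctsg at 714 and 135, Ms4a3 at 459.6 and 217 and Prss57 at 81.2 and 38.5 CPM. The log2 ratios were 2.41 (2.19 to 2.63) for Ctsg, 2.06 (1.95 to 2.17) for Elane, 1.99 for Prtn3, 1.94 for Mpo, 1.08 for Ms4a3 and 1.08 for Prss57. The 2 gates did not hold like cells: S100a8 made up under 5% of UMIs in 60 of 218 Tet2 KO cells and 6 of 148 control cells, and the secondary granule share had a median of 7.87% in Tet2 KO and 14.7% in control. Neutrophil markers summed to 71382 CPM in Tet2 KO and 134080 CPM in control, monocyte markers to 4087 CPM in Tet2 KO and 2347 CPM in control, and monocytic progenitor markers to 2612 CPM in Tet2 KO and 1482 CPM in control. Granulocytic progenitor markers were lower in Tet2 KO, at 2269.5 CPM against 2655 CPM in control. Stem and early progenitor markers were at 22.8 CPM in Tet2 KO and 26.4 CPM in control. The part of these markers in the difference was not tested.

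Of the S100a8-high cells, 28 in Tet2 KO (12.8%) and 3 in control (2.03%) had a summed member level of 10000 CPM or more. Of the 28, 17 had under 1% of their UMIs from the secondary granule genes and 7 had 1 to 5%. Cells with under 1% made up 30.3% of the gate in Tet2 KO and 6.08% in control. The median cell had a summed level of 580.0 CPM in Tet2 KO and 284 CPM in control.

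With S100a8 at 5% or more of UMIs, in 158 Tet2 KO and 142 control cells, 6 of 6 members were again 1.5-fold or more higher in Tet2 KO, where 15.6% of genes were, with a median log2 ratio of 1.53. Among cells with over 5% of UMIs from the secondary granule genes, 127 in Tet2 KO and 136 in control, a comparison chosen after seeing the data, the differences were smaller. There 4 of the 5 members with at least 100 UMIs were 1.5-fold or more higher in Tet2 KO, where 6.82% of genes were, and 5 of 6 were without that limit. Ctsg stood at 80.5 CPM in Tet2 KO and 29.5 CPM in control, and in the same order Mpo at 177 and 82.1, Elane at 595 and 317 and Prtn3 at 372 and 222 CPM. Ms4a3, at 247 CPM in Tet2 KO and 206 CPM in control, had a log2 ratio of 0.26 (0.02 to 0.51). The median log2 ratio of the members was 0.84 here, against 0.16 over all genes tested. These levels also rested on few cells: in Tet2 KO 3 cells held 63.4% of the Mpo UMIs, 48.3% of those of Elane and 46.1% of those of Ctsg, and in control 3 cells held 47.6% of those of Mpo and 56.2% of those of Elane. The median cell had 411 CPM of the 6 members in Tet2 KO and 269.9 CPM in control, and 4 Tet2 KO cells and 1 control cell had 10000 CPM or more. Lymphoid cells of the same libraries had 122 CPM of Mpo in Tet2 KO and 24.7 CPM in control, and in the same order 108 and 22.1 of Ctsg, 234 and 29.9 of Elane and 173 and 54.6 of Prtn3, and their median cell had 116 CPM of the 6 in Tet2 KO and 69.6 CPM in control. In Tet2 KO 3 lymphoid cells held 74.95% of the member UMIs. Counted without the limit of 100 UMIs, 5 of 6 members were 1.5-fold or more higher in Tet2 KO lymphoid cells (67.0% of the genes with at least 100 UMIs were), Prss57 being the exception, and the part of such RNA in the difference was not tested. The shares after thinning were compared for the S100a8-high cells with over 5% of UMIs from the secondary granule genes. In Tet2 KO the intervals of Mpo, Prtn3 and Ctsg overlapped those of lymphoid cells, with Ctsg in 22.05% of cells (15.2 to 30.3%) against 11.01% (5.82 to 18.4%). In control those of Mpo, Elane, Prtn3 and Ctsg did, so no expression of these genes is read from the shares.

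**Figure D5:**
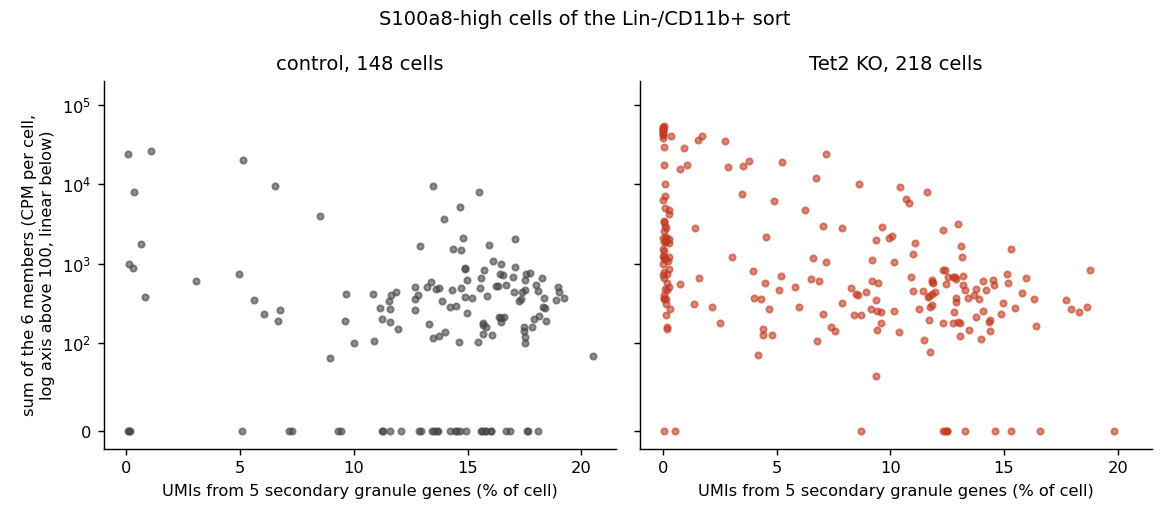
Each point is an S100a8-high cell of the Lin-/CD11b+ sort, control on the left and Tet2 KO on the right; the x axis gives the percent of its UMIs from 5 secondary granule genes and the y axis the summed CPM of the 6 members, linear below 100 and logarithmic above. The Tet2 KO panel has a column of 66 cells under 1% on the x axis, 17 of them at 10000 CPM or more, while control has 9 cells there.

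The wider granule pathway was given by a list of 35 genes in 3 roles. Of 12 other primary granule contents, mostly lysosomal enzymes, Lyz2 (lysozyme) was highest outside the Cebpe gate, at 12722 CPM in control S100a8-high cells and 16987 CPM in Fn1 cells against 122 CPM in GMP-sorted Cebpe cells, which is the reverse of the members. Cd63, a membrane protein of the granule, followed the members, with 1039 CPM in control GMP-sorted Cebpe cells and 39.8 CPM in Ly86 cells. Bpi was at or near 0 in each gate. In control GMP-sorted Cebpe over Ly86 cells, 3 of the 11 contents tested were 1.5-fold or more higher and 3 lower, where 7.08% of genes were higher and 10.6% lower.

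Of 15 genes for processing, storage and inhibition, 12 were tested in that contrast, 5 were 1.5-fold or more higher in Cebpe cells and 1 was lower, against the same shares of genes. The higher ones were Srgn (serglycin) at 2329.5 CPM in Cebpe and 677 CPM in Ly86 cells, and in the same order Cst7 (cystatin F, an inhibitor of cathepsin C) at 440.2 and 184 CPM, Serpinb1a (an inhibitor of elastase) at 453 and 172 CPM, Calr (a chaperone of myeloperoxidase) at 1861 and 1175 CPM and G6pc3. Ctsc, which encodes the cathepsin C that activates the granule serine proteases, was the lower one, with 26.4 CPM in Cebpe and 105 CPM in Ly86 cells, and it reached 316 CPM in control Fn1 cells, where the members were low. Of 8 transcription factors known to act on the members, 6 were tested. Gfi1 and Myb were higher in Cebpe cells, at 21.7 and 280.2 CPM against 2.92 and 114 CPM in Ly86 cells, Runx1 was lower, and Spi1, which encodes PU.1, stood at 236 CPM in Cebpe and 252 CPM in Ly86 cells.

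Between genotypes Ctsc was the pathway gene that most often stood 1.5-fold or more higher in Tet2 KO. In the pairs that follow Tet2 KO stands before control. Ctsc was at 169 and 105 CPM (Tet2 KO, control) in GMP-sorted Ly86 cells, where 1 of 14 tested genes of its role was higher, against 1.40% of genes, and 0 lower. In Ly86 cells of the Lin-/CD11b+ sort it was at 222 and 115 CPM (Tet2 KO, control), and in Fn1 cells at 534 and 316 CPM, again as the only gene of its role past the limit, of 14 and 7 tested, against 2.75% and 5.90% of genes. In S100a8-high cells 7 of 8 were higher (33.7% of genes were), among them Ctsc at 177 and 27.1, Srgn at 489 and 162 and Calr at 219 and 67.1 CPM in Tet2 KO and control. The cells of this gate were not alike in the 2 genotypes. Among those with over 5% of UMIs from the secondary granule genes, only 1 of 5 tested was higher, Calr, where 6.82% of genes were. Ctsc was also higher in Tet2 KO in the lymphoid background cells, where 4 of 6 tested genes of its role and 67.0% of genes were. The part of such RNA in the other gates was not tested. Of the transcription factors, Cebpb was higher in Ly86 cells of the Lin-/CD11b+ sort (25.6 CPM in Tet2 KO, 13.2 in control), 1 of 6 tested, against 2.75% of genes. In Fn1 cells it was also higher (72.8 in Tet2 KO, 39.9 in control), 1 of 3 tested, against 5.90% of genes. Gfi1 was lower in GMP-sorted Cebpe cells (12.7 CPM in Tet2 KO, 21.7 in control), 1 of 6 tested, against 1.18% of genes. Among the other contents, Cd63 was higher in GMP-sorted Ly86 cells (74.8 CPM in Tet2 KO, 39.8 in control), 1 of 11 tested, against 1.40% of genes. Lyz2 was higher in Cebpe cells of the Lin-/CD11b+ sort (301 CPM in Tet2 KO, 106 in control), 1 of 7 tested, against 1.16% of genes. In S100a8-high cells Ctsb (185 CPM in Tet2 KO, 116 in control) was the only higher one of 8 tested, where 33.7% of genes were higher.

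Over the 7 gates of the control libraries with at least 20 cells, each member's log2(CPM + 10) had a Pearson's r of 0.88 to 0.98 with the mean of the other 5, highest for Elane (0.98) and lowest for Prss57 (0.88). Among the 4178 genes compared, the 10 most alike to the mean of the members, with r from 0.97 to 0.99, were Tomm70a, Dmkn, Cst7, Cwc27, Mrpl41, Ss18l2, Coa3, Bcat2, Mycbp and Ccdc167. Cst7 had the widest range of these, 4.6 on the log2 scale, from 8.56 CPM in S100a8-high cells to 440.2 CPM in GMP-sorted Cebpe cells, close to the 4.23 of Prtn3. Dmkn ranged over 2.92, from 5.71 to 109 CPM, and the remaining 8 over 0.66 to 1.38. The 7 points share 2 libraries and differ in depth, and these values are descriptions.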

How the data were processed

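RNA of single cells was counted in 4 libraries, and per the labels the authors used Cell Ranger 3.1.0, Seurat and mm10 and deposited raw UMI counts per gene and cell with a table naming the library of each cell. Kit versions differ between the methods (v2) and the series design. The stated filter keeps cells with at least 200 genes, 5000 UMIs and under 5% mitochondrial counts; 413 of 8969 deposited cells are at or above the last limit, and all cells were kept. Doublets were not removed. The members, lists and gates were chosen with earlier results of these data known. Deposited counts were summed per gate and library and given as CPM. A member was counted as different at 1.5-fold or more where either library held at least 100 UMIs, gates with under 20 cells gave no ratio, and a count under 3 was set to that floor in ratios. The lymphoid background, at least 10 UMIs of Cd79a or Cd3 genes, was set after seeing the data. Named genes were the members, the pathway list, the gate and marker genes, and the 10 genes most correlated with the members among those with at least 500 UMIs. Thinning used random seed 1. Ratios were tested on simulated Poisson counts. Python 3.11.15, numpy 2.4.6, scipy 1.17.1, pandas 2.3.3 and matplotlib 3.10.9 were used, and edgeR 4.0.16 in R 4.3.3 gave TMM factors for an alternative. Alternatives changed the gates, the total, the weighting of cells and the cells kept. Promoters were taken from RefSeq on GRCm38.p6 for 5 of the 6 members.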

Additional observations from a re-analysis of the deposited data

Results flagged for a closer look

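The log2 ratio of Tet2 KO over control had opposite directions, past 1.5-fold on each side, in 2 gates of the Lin-/CD11b+ sort for 4 members. Mpo was higher in S100a8-high cells and lower in Fn1 cells, a difference of log2 ratios of 2.92, and for Elane this difference was 2.83. For Prss57 the difference between S100a8-high cells and Hlf/Procr cells was 2.28, that between S100a8-high and Cebpe cells 1.68, and that between S100a8-high and Fn1 cells 3.51, the last with 6 and 11 UMIs in Fn1 cells. For Ms4a3 the difference between S100a8-high and Hlf/Procr cells was 1.81. With 1 library per genotype these differences were not tested. The values of Fn1 and Hlf/Procr cells rest on few cells, as given with each, and the S100a8-high cells of the 2 genotypes differed in their secondary granule share. The lower side changed direction under an alternative for Mpo and Elane in Fn1 cells and for Ms4a3 in Hlf/Procr cells, as given below.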

How the results depend on the processing

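No paired analysis was possible because the labels give the 4 libraries the same single replicate number and no result comes from a test. Of 17 alternatives, 2 were chosen after seeing the data (the narrower exclusion of lymphoid and basophil cells, and S100a8-high cells with over 5% secondary granule UMIs). The 13 log2 ratios of members past 1.5-fold, counted without the limit of 100 UMIs, kept their direction under every alternative run in 10 cases and stayed past 1.5-fold in 7. The direction turned for Ms4a3 in Hlf/Procr cells without cells at 5% or more mitochondrial UMIs (0.23), and in Fn1 cells for Mpo (0.72) and Elane (0.32) with gates on thinned cells and for Mpo (0.63) and Elane (0.13) without the 5% of cells with most UMIs. The count of members past 1.5-fold in Hlf/Procr cells, 1, became 5 with gates on thinned cells, 0 with no cell left out before gating, and 2 with the mean over cells, without cells of high mitochondrial share or without the deepest cells. In Ly86 cells of the Lin-/CD11b+ sort it went from 0 to 1 with gates on thinned cells, with no cell left out, at 10 UMIs of Fn1 and without the deepest cells. In Cebpe cells of that sort it went from 1 to 0 with S100a8 at 5%, with the mean over cells and without the deepest cells, and in Fn1 cells from 2 to 4 with no cell left out and to 1 at 3 UMIs of Fn1 and with the mean over cells. The causes were not tested. Depth limits Prss57 outside Cebpe cells, where it had 6 to 39 UMIs per library in the Fn1 and Hlf/Procr gates, and intervals cover counting error only.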

Other observations

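Cells set aside for basophil genes (at least 3 UMIs of Mcpt8 and Prss34 together) carried the members in another proportion. In the Lin-/CD11b+ sort, 90 control and 130 Tet2 KO cells had 3473 and 2896 CPM of Ctsg, 2729 and 3168 of Mpo and 925 and 900.5 of Ms4a3. The median cell had 2912 and 2763 CPM of Ctsg and 735 and 857 CPM of Ms4a3, but 148 and 247 CPM of Elane and 744 and 876 CPM of Prtn3. After thinning, Ctsg was found in 97.8% and 97.7% of these cells, Mpo in 94.4% and 97.7%, and Elane in 60.0% and 58.5%. The summed level of Elane was 2806 and 1902 CPM, with 3 cells holding 27.4% and 26.9% of its UMIs.

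Between Prss57 and Prtn3 lie Palm, Misp, Ptbp1 and Plppr3. In control GMP-sorted Cebpe and Ly86 cells, Ptbp1, a splicing regulator, stood at 109 and 115 CPM, Plppr3 at 42.5 and 52.2, Palm at 43.0 and 24.8 and Misp at 0 in both. Cfd, the gene after Elane, stood at 0.538 and 0.291 CPM (3 and 2 UMIs), against 11209 and 4218 CPM of Elane.

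In the GMP sort, 8 Tet2 KO cells and 1 control cell were S100a8-high. The 8 cells had 22257 CPM of Elane and 51827 CPM of the 6 members together, above the Cebpe cells of the same library (33367 CPM), and S100a8 stayed under 5% of their UMIs. The control cell had 940.0 CPM.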
